A study of Mus musculus with 24 samples.

Results

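A set of 9 genes of the transforming growth factor beta (TGF-beta) system was followed in the mouse aorta, namely the ligands Tgfb1, Tgfb2 and Tgfb3, the receptors Tgfbr1, Tgfbr2 and Tgfbr3, the latent binding proteins Ltbp1 and Ltbp2, and the induced matrix gene Tgfbi. They were taken by symbol from the deposited expression table, in which all 9 were found among 32561 genes. The study compared aortas of mice with renal failure, of both sexes and with a changed Bmp2 gene. RNA was sequenced from 24 aortas, 4 in each of 6 groups, of mice aged 44 to 53 days on the 129S1/SvlmJ background. The groups were Bmp2+/+ Klotho Kl/Kl males and Bmp2+/+ control males, Bmp2+/+ Klotho Kl/Kl females and Bmp2+/+ control females, and males homozygous for the Bmp2 allele ∆UCS that were Klotho Kl/Kl or control. Kl/Kl mice are homozygous for the recessive Klotho mutation and are described in the labels as having renal disease. Controls were Klotho+/Kl, with the exception of Bmp2+/+ control male replicate 1, which was Klotho+/+, so nearly all controls carried 1 mutated allele. Female ∆UCS mice were not analysed here, and the labels do not say what the ∆UCS change removes or alters.

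TGF-beta ligands are secreted in a latent form, held by their own propeptide and tethered to the matrix by latent TGF-beta binding proteins. Once released, a ligand dimer binds the type II receptor, which phosphorylates the type I receptor, and the type I kinase phosphorylates Smad2 and Smad3, which enter the nucleus with Smad4. In the aortic wall this pathway acts on smooth muscle cells and fibroblasts and controls the synthesis of extracellular matrix, and inherited variants in its receptors and ligands are known causes of aneurysm.

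Libraries held an estimated 20589366 to 61095322 reads in genes, and mitochondrially encoded genes took 40.2% to 61.2% of the deposited TPM, transcript abundance scaled for length and depth. Values below are TPM scaled by the median of ratios of nuclear genes, called scaled TPM. Because the deposited TPM was made per genomic span, introns included, it can set 1 gene in different libraries side by side, and no 2 genes against one another. The labelled sex of 2 libraries did not match their levels of Xist, an X-linked transcript of female cells, and of Y-linked Ddx3y. Kl/Kl Bmp2+/+ male replicate 1 had 11.3 scaled TPM of Xist and 0.0136 of Ddx3y, and Kl/Kl female replicate 2 had 0.0272 of Xist and 4.65 of Ddx3y. These 2 libraries were left out of the main fit, which kept 22, and results with all 24 are given beside it. Kl itself had 0 to 30 estimated reads in the 22 libraries, too few to check the Klotho label, and Bmp2 had 72 to 479 reads. Smooth muscle markers were present in every library, with a summed level of 104 to 824 scaled TPM, but markers of other tissues also varied widely, with cardiomyocyte markers summing to 39.2 to 3716 and airway epithelium markers to 8.33 to 2278 scaled TPM. Each sum adds genes of unlike genomic span, so it weights shorter genes more, and it sets libraries, not marker lists, side by side.

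All 9 genes passed the filter on low values, and the fewest estimated reads of any of them in a library were 88, for Tgfb1. On a scale that compares genes, exonic RPKM (estimated reads divided by exon length and by scaled library size), the type II receptor Tgfbr2 had the highest mean level, 21.6 ± 4.11 (SD, n = 22 libraries). The induced matrix gene Tgfbi followed at 21.2 ± 5.11, and the type I receptor Tgfbr1 at 16.4 ± 6.89 on the same scale. The co-receptor Tgfbr3, which presents ligand to the signalling receptors, averaged 15.6 ± 2.91 and Ltbp1 averaged 14.3 ± 6.79 exonic RPKM. Tgfb3 at 10.5 ± 3.56 and Ltbp2 at 9.69 ± 3.14 were lower, and Tgfb2 at 5.68 ± 2.77 and Tgfb1 at 3.24 ± 2.07 were lowest. Between neighbours in this order, the difference in mean level was larger than both SDs between Ltbp2 and Tgfb2 and at no other step. Exon lengths came from GENCODE's older mouse annotation, and whether the authors counted intronic reads is not given in the sources used here.

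**Figure D1:**
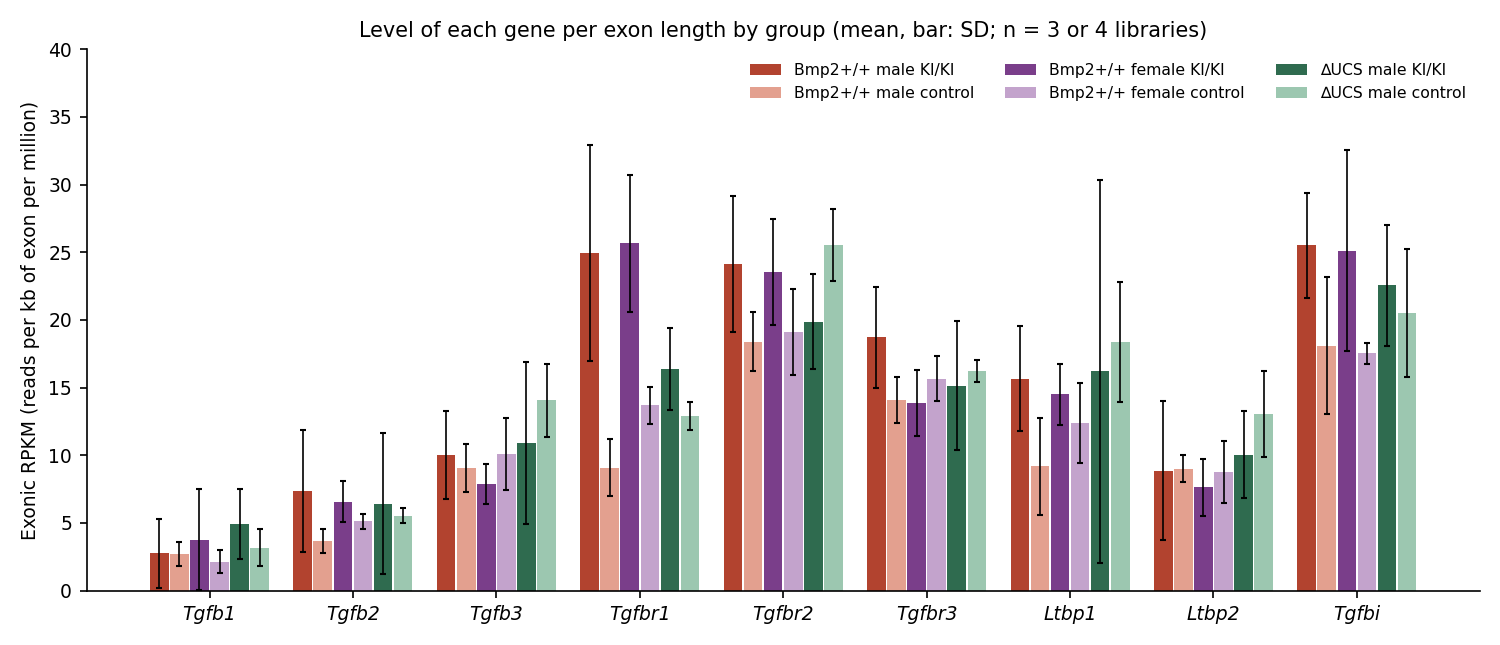
Exonic RPKM of each gene, as group means (bars) with SD (whiskers, 3 or 4 libraries a group). Tgfbr2 and Tgfbi stand highest over all libraries at 21.6 and 21.2, and Tgfb1 lowest at 3.24.

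The type I receptor Tgfbr1 was the one gene of the 9 that passed the test for Klotho, and it was higher in Kl/Kl aortas. In Bmp2+/+ males Tgfbr1 (ENSMUSG00000007613, mm39 chromosome 4, 47353222 to 47414932, plus strand) had 1.31, 1.92 and 2.54 scaled TPM in the Kl/Kl aortas of replicates 2 to 4, against 0.789, 0.882, 0.578 and 0.550 scaled TPM in the 4 controls. Every kept Kl/Kl aorta was above every control, while the doubted Kl/Kl replicate 1 had 0.761, inside the control range. Mean levels were 1.92 ± 0.616 scaled TPM in Kl/Kl males (SD, n = 3) and 0.700 ± 0.162 in control males (SD, n = 4). The log2 difference, Kl/Kl minus control, was 1.36 (SE 0.208, 95% interval 0.923 to 1.80, limma adjusted p = 0.00109). It was 1 of 9 genes called in this comparison, beside 1.18% of 21248 genes tested over the whole table in either direction and 1.04% higher. With all 24 libraries the difference was 1.02 with an adjusted p of 0.42, and leaving out Kl/Kl replicate 4 gave 1.12 with an adjusted p of 0.104. Library sets 1 and 2 were inferred from 2 spellings of the library names, and the labels do not say what they stand for. Within set 1 the log2 difference was 1.11 with a limma adjusted p of 0.303. Set 2 kept 1 Kl/Kl library, which gives no within-set value.

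In Bmp2+/+ females Tgfbr1 was also higher. The Kl/Kl aortas of replicates 1, 3 and 4 had 1.60, 1.95 and 2.37 scaled TPM, against 1.19, 0.959, 0.988 and 1.08 in the 4 controls. Here too the groups did not overlap, and the doubted Kl/Kl replicate 2, at 1.64, lay with the other Kl/Kl aortas. The log2 difference was 0.83 (SE 0.205, 95% interval 0.402 to 1.26, limma adjusted p = 0.0349), and again 1 of 9 genes was called, beside 2.8% of all genes tested and 1.8% higher. This call lies close to the threshold. With all 24 libraries the adjusted p was 0.283 at a log2 difference of 0.77, within library set 2 alone it was 0.059 at 0.87, and with age as a covariate it was 0.0549 at 0.81. Leaving out Kl/Kl replicate 3 or 4 gave an adjusted p of 0.127 or 0.134, and leaving out control replicate 2, 3 or 4 gave 0.115, 0.108 or 0.0775.

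In ∆UCS males no gene of the 9 was called, beside 0.885% of all genes called, 0.551% higher and 0.334% lower. Tgfbr1 had 1.03, 1.10, 1.53 and 1.38 scaled TPM in the ∆UCS Kl/Kl aortas, against 0.904, 1.02, 1.09 and 0.967 in the ∆UCS controls, so the groups overlapped. Its log2 difference was 0.30 (SE 0.19, 95% interval −0.098 to 0.700, limma adjusted p = 0.497). The difference between strata was tested directly. The Klotho effect on Tgfbr1 in ∆UCS males minus that in Bmp2+/+ males was −1.06 (95% interval −1.65 to −0.467, unadjusted p = 0.00145, adjusted p = 0.663, limma), which missed the threshold. The effect in females minus that in Bmp2+/+ males was −0.53 (95% interval −1.14 to 0.0873, adjusted p = 1.0). Neither interaction called any of 21248 genes (0%), although 1559 genes for Bmp2 and 684 genes for sex had an unadjusted p under 0.05, and limma voom on estimated reads also called 0.

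**Figure D2:**
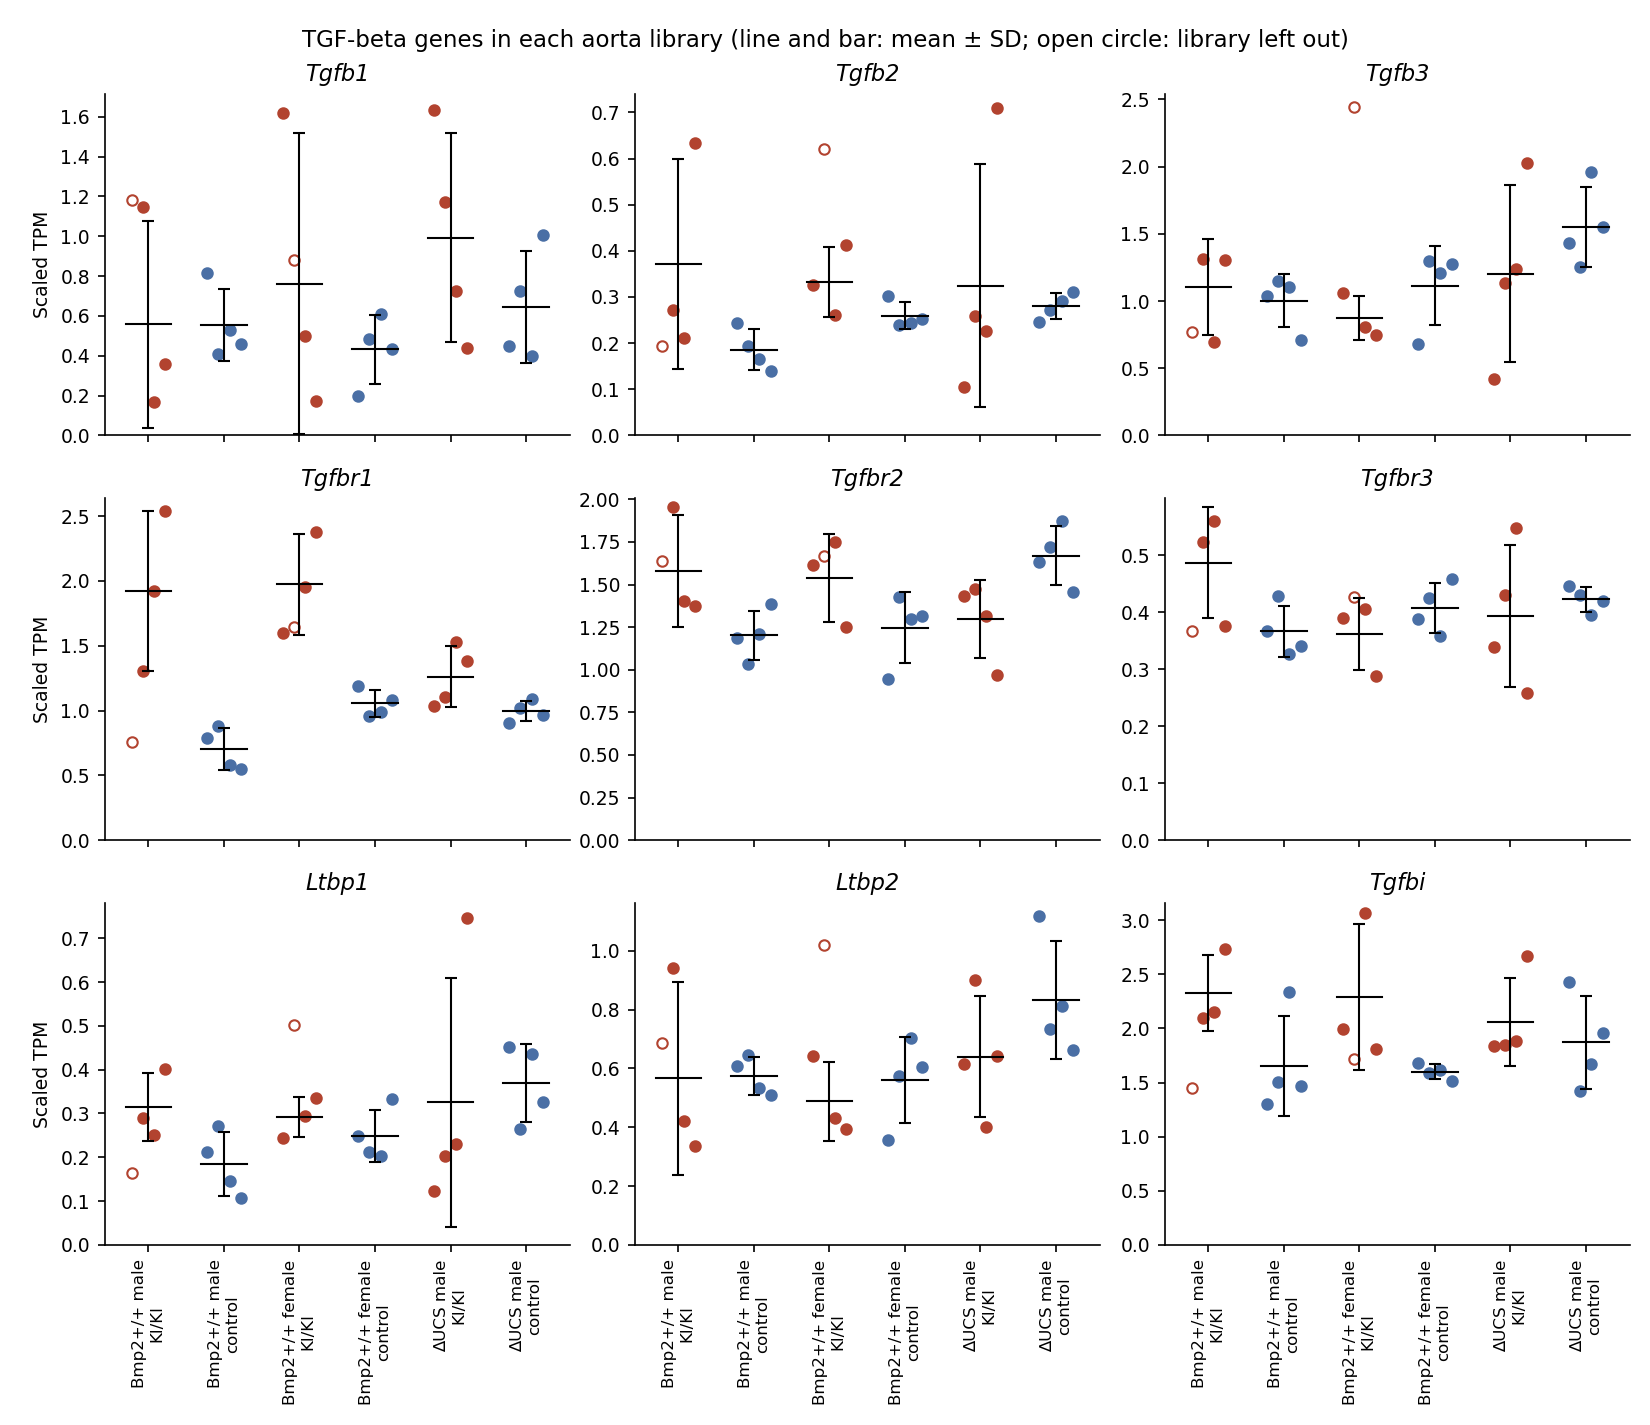
Scaled TPM of each of the 9 genes in each library, with Kl/Kl in red left of its control in blue (lines and whiskers, mean ± SD of kept libraries, open circles, the 2 libraries left out). Tgfbr1 lies at 1.31 to 2.54 in kept Kl/Kl Bmp2+/+ males and at 0.550 to 0.882 in their controls, and Tgfb1 varies widely inside every Kl/Kl group.

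Macrophage markers moved with Klotho beside Tgfbr1. Of 8 markers (Cd68, Adgre1, Csf1r, Mpeg1, C1qa, C1qb, Mrc1 and Lyz2), 5 were called higher in Kl/Kl among Bmp2+/+ males, 7 among females and 3 among ∆UCS males. Over all genes 1.04%, 1.8% and 0.551% were called higher. None of the 8 was called lower, beside 0.136%, 0.998% and 0.334% of all genes, and all 8 had a positive log2 difference in each stratum. By limma and by limma voom, 0 of the 8 were called in each of the 3 strata once all 24 libraries were used. Leaving out each kept library gave 1 to 5, 3 to 7 and 1 to 3, and library set 1 alone gave 1 in Bmp2+/+ males and 1 in ∆UCS males. Their summed level was 389 to 534.7 scaled TPM in Kl/Kl Bmp2+/+ males, against 39.2 to 190.4 in their controls. In females it was 395.1 to 676.4 in Kl/Kl, against 50.78 to 91.89 in controls. Among ∆UCS males it was 207.1 to 373.7 in Kl/Kl, against 47.09 to 100.1 in controls. The doubted Kl/Kl libraries had sums inside the control ranges, 121.6 in the Bmp2+/+ male and 56.86 in the female. This sum does not weigh the 8 markers alike, since genes of shorter span count for more in it. Adgre1 gave 0.0398 to 0.330 scaled TPM of it in the kept libraries, and Lyz2 had the most estimated reads of the 8 in every library. In a whole aorta, more cells of a type and more RNA per cell cannot be told apart.

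The relation of log2 Tgfbr1 to the log2 macrophage sum was taken over all kept libraries and within each Klotho class. Over the 22 libraries Pearson's r was 0.729 (permutation p = 0.00011, adjusted 0.00297 over 135 relations of the 9 genes with library measures and marker sums) and Spearman's rho 0.787 (permutation p = 5e-05, adjusted 0.00169). Without the 2 libraries farthest from the median sum r was 0.647, and it was 0.606 in library set 1 and 0.853 in set 2. Over the 10 kept Kl/Kl libraries Pearson's r was 0.877 (permutation p = 0.00118, adjusted over 2 classes 0.00236) and Spearman's rho 0.879 (permutation p = 0.00153, adjusted 0.00306), with r = 0.817 without the 2 farthest. Within library sets 1 and 2 r was 0.815 over 6 and 0.744 over 4 Kl/Kl libraries. Of the 135 relations only this one was tested within classes, a choice that the adjustment over 2 classes does not cover. The 10 libraries are also part of the 22. Among relations not tested this way, r within Kl/Kl was higher for Ltbp1 (0.92) and Tgfb2 (0.881) with the smooth muscle sum. It was also higher for Tgfb1 with the GC slope described below (0.878). These 10 libraries pooled the strata, and the permutations were not kept within a stratum. Macrophage sums of ∆UCS Kl/Kl males (207.1 to 373.7) all lay below those of Bmp2+/+ Kl/Kl males (389 to 534.7) and females (395.1 to 676.4). Tgfbr1 ran from 1.03 to 1.53, from 1.31 to 2.54 and from 1.60 to 2.37 scaled TPM in the same order. The part of these stratum differences in r was not tested. Over the 12 control libraries the relation did not hold, with an r of −0.496 (permutation p = 0.104, adjusted 0.104) and a rho of −0.0699 (permutation p = 0.834, adjusted 0.834), and r was −0.236 without the 2 farthest, −0.729 in set 1 and −0.243 in set 2. The part of macrophage RNA in the Tgfbr1 difference was not tested. By Pearson's r over all 22 libraries, the tested genes most like Tgfbr1 were Pgm3 (0.912), Asah1 (0.909) and Dse (0.905).

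Sums of some other marker lists also differed between Kl/Kl and control aortas in some strata. Platelet markers (Pf4, Ppbp and Itga2b) summed to 17.0 to 17.75 scaled TPM in Kl/Kl Bmp2+/+ males, against 4.063 to 11.18 in their controls, and to 10.28 to 26.25 in Kl/Kl females, against 5.059 to 9.635 in controls, without overlap, although 0 of the 3 passed the test. Under the deposited scaling 2 of the 3 were called higher in females and 0 in Bmp2+/+ males. Taken singly, only Pf4 was free of overlap in these strata, and Ppbp and Itga2b overlapped in both. Over 24 libraries Pf4 had 84 to 1236 estimated reads and Ppbp 1 to 75, so the sum is no reading of all 3 markers alike. In ∆UCS males the platelet sums overlapped, at 7.363 to 43.04 in Kl/Kl and 8.303 to 9.122 in controls. Over 22 libraries Tgfbr1 had an r of 0.588 with the platelet sum (permutation p = 0.0038, adjusted 0.0405) and a rho of 0.664 (permutation p = 0.00095, adjusted 0.0223), with r = 0.613 without the 2 farthest, 0.445 within Kl/Kl, −0.312 within controls, 0.589 in set 1 and 0.683 in set 2. Of 5 airway epithelium markers 2 were called higher with Kl/Kl in females and 2 in ∆UCS males (Reg3g and Scgb3a1 in both), beside 1.8% and 0.551% of all genes. All 5 had a positive log2 difference in these strata, and with all 24 libraries 0 were called. Leaving out each kept library gave 0 to 2 in both strata. In females age as a covariate gave 1 and library set 2 alone gave 3, and in ∆UCS males library set 1 alone gave 0. The airway sum was 1894 to 2278 in Kl/Kl females, against 297.5 to 1358 in controls, and the groups overlapped in Bmp2+/+ males and in ∆UCS males. The neutrophil sum was higher without overlap in Kl/Kl Bmp2+/+ males (6.191 to 27.48, against 0.3397 to 6.173 in controls) and in ∆UCS Kl/Kl males (5.119 to 16.11, against 0.3299 to 3.816 in their controls). The groups of Bmp2+/+ males nearly touched, and taken singly S100a9 overlapped there, as S100a8 did in ∆UCS males. Ly6g, also in this sum, overlapped in both and had 0 to 18 estimated reads. Of the 3 neutrophil markers 2 were tested. The adipocyte and Schwann cell sums were lower without overlap in Kl/Kl females, and the endothelium sum in ∆UCS Kl/Kl males. No neutrophil, adipocyte, Schwann cell or endothelium marker was called for Klotho in any stratum. The part of RNA from these cells in the Tgfbr1 difference was not tested.

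The ligand Tgfb1 (ENSMUSG00000002603, mm39 chromosome 7, 25386427 to 25404503, plus strand) varied more between libraries of 1 group than any other of the 9 genes. It had 1.14, 0.168 and 0.360 scaled TPM in the Kl/Kl Bmp2+/+ males of replicates 2 to 4, against 0.816, 0.409, 0.532 and 0.462 in their controls. In females it had 1.62, 0.497 and 0.174 in Kl/Kl replicates 1, 3 and 4, against 0.197, 0.486, 0.610 and 0.436 in controls. Among ∆UCS males it had 1.63, 1.17, 0.727 and 0.439 in Kl/Kl, against 0.448, 0.724, 0.398 and 1.01 in controls. The groups overlapped in all 3 strata, and the highest library stood 9.76-fold above the lowest. The SD within groups was 0.846 on the log2 scale, against 0.215 for Tgfbr3, the lowest of the 9, and 0.222 for Tgfbr2. The log2 differences were −0.33 (SE 0.576) in Bmp2+/+ males, 0.37 (SE 0.568) in females and 0.49 (SE 0.525) in ∆UCS males, with limma adjusted p-values of 0.837, 0.782 and 0.707. The intervals ran from −1.54 to 0.884, from −0.825 to 1.56 and from −0.610 to 1.60, the widest of the 9 genes in each stratum. In Bmp2+/+ males the sign changed with the setting, and with all 24 libraries the value was 0.06.

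Tgfb1, and less firmly Tgfbr1, moved with a property of the libraries, the slope of their values on transcript GC content. That slope ran from −0.549 to 0.257 log2 units per 10 points of GC. Over the 22 libraries its Pearson's r with log2 Tgfb1 was 0.792 (permutation p = 1e-05, the smallest these permutations can give, adjusted 0.000675) and Spearman's rho was 0.792 (permutation p = 4e-05, adjusted 0.00169). Without the 2 libraries farthest from the median slope r was 0.71. It was 0.878 over the 10 Kl/Kl and 0.827 over the 12 control libraries, and 0.825 in library set 1 and 0.688 in set 2. With log2 Tgfbr1 the r was −0.597 (permutation p = 0.00345, adjusted 0.0405) and the rho −0.458 (permutation p = 0.0334, adjusted 0.173), past the threshold by r and not by rho. That r was −0.379 without the 2 farthest libraries, and was −0.754 within Kl/Kl, −0.479 within controls, −0.597 in set 1 and −0.578 in set 2. The longest annotated transcript of Tgfb1 holds 52.5% GC and that of Tgfbr1 41.0%, but Tgfb3 (53.0%), Ltbp1 (52.7%) and Tgfbi (53.3%), with transcripts of much the same GC as that of Tgfb1, had an r of 0.362, −0.197 and −0.192 with the slope, and Ltbp2 (58.5%) had 0.555. With the slope as a covariate, an alternative added after this spread was seen, Tgfb1 had a log2 difference of 0.56 (adjusted p = 0.459) in Bmp2+/+ males, while Tgfbr1 stayed called at 1.20 (adjusted p = 0.00311) in males and 0.73 (adjusted p = 0.0294) in females. Whether GC content of the libraries is the cause of the spread in Tgfb1 was not tested. The tested genes most like Tgfb1 over 22 libraries were Rara (Pearson's r 0.966), Ttyh3 (0.963) and Cmip (0.944).

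**Figure D3:**
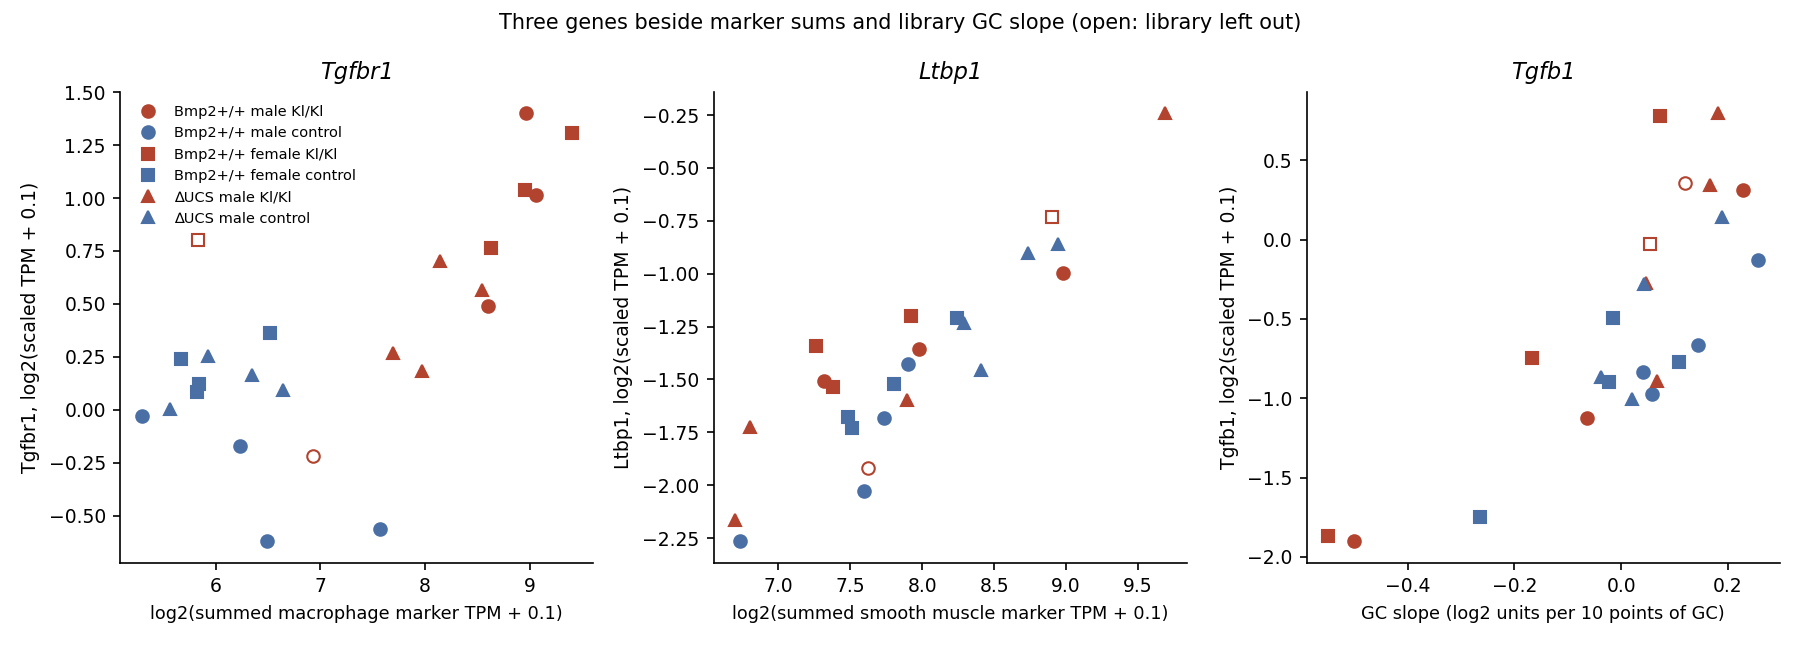
Levels of 3 genes in each library, as log2(scaled TPM + 0.1), against the summed macrophage markers (left), the summed smooth muscle markers (middle) and the GC slope of the library (right), with Kl/Kl in red, controls in blue and the 2 left-out libraries open. Tgfbr1 follows the macrophage sum over the Kl/Kl libraries of all strata pooled (r = 0.877, against −0.496 over the pooled controls), Ltbp1 follows the smooth muscle sum (r = 0.892) and Tgfb1 the GC slope (r = 0.792).

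The promoters of these 2 genes are shown because the calls turn on Tgfbr1 and the spread on Tgfb1. Each is the 200 bases before the annotated start in RefSeq's GRCm38.p6 table, which held a promoter for 7 of the 9 genes, on the plus strand, chr4:47353022-47353221 for Tgfbr1 and chr7:25686802-25687001 for Tgfb1. Capitals mark GC boxes, GGGCGG or its reverse complement CCGCCC.
Tgfbr1: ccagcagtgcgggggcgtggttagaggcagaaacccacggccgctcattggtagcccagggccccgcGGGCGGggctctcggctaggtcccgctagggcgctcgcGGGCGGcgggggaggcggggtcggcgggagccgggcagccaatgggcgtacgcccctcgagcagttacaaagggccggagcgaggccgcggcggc
Tgfb1: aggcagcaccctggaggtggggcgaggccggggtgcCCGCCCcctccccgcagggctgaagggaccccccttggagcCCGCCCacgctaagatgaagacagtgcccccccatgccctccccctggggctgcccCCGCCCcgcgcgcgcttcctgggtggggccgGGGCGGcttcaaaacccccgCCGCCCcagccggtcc
Both windows are GC-rich, 76.0% for Tgfbr1 and 77.5% for Tgfb1. Tgfbr1 holds 2 GC boxes and Tgfb1 holds 5, a motif found in 31.05% of 32851 mouse promoter windows of the same length. The Smad box CAGAC or GTCTG occurs in neither window, and in 35.47% of all windows. A match of letters is a description and not a binding site.

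The ligands Tgfb2 and Tgfb3, which are made by smooth muscle and other mesenchymal cells, were not called in any stratum. Tgfb2 had 0.273, 0.211 and 0.633 scaled TPM in kept Kl/Kl Bmp2+/+ males, against 0.244, 0.194, 0.166 and 0.140 in controls, a log2 difference of 0.69 (SE 0.337, adjusted p = 0.406). Kl/Kl replicate 4 was the high library, and without it the difference was 0.17. In females Tgfb2 ran from 0.261 to 0.412 in Kl/Kl and from 0.240 to 0.302 in controls, a difference of 0.26 (SE 0.333). Among ∆UCS males it ran from 0.106 to 0.709 in Kl/Kl and from 0.247 to 0.312 in controls, a difference of −0.02 (SE 0.308). Tgfb2 had an r of 0.732 with the summed smooth muscle markers over 22 libraries (permutation p = 0.00011, adjusted 0.00297) and a rho of 0.598 (permutation p = 0.00402, adjusted 0.0493), with r = 0.534 without the 2 farthest, 0.881 within Kl/Kl, 0.660 within controls, 0.790 in set 1 and 0.767 in set 2. The 4 ∆UCS controls lay close together while the ∆UCS Kl/Kl aortas held both the lowest and the highest value of the 22. With the fibroblast sum Tgfb2 had an r of 0.629 (permutation p = 0.00295, adjusted 0.0405) and a rho of 0.613 (permutation p = 0.00312, adjusted 0.0493). That r was 0.241 without the 2 farthest, 0.642 within Kl/Kl, 0.459 within controls, 0.871 in set 1 and 0.239 in set 2. By r alone Tgfb2 passed with the cardiomyocyte sum (0.577, adjusted permutation p = 0.0405). By rho alone it passed with the cartilage sum (0.599, adjusted permutation p = 0.0493).

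Tgfb3 ran from 0.695 to 1.32 scaled TPM in Kl/Kl Bmp2+/+ males and from 0.714 to 1.15 in controls, with a log2 difference of 0.11 (SE 0.367). It ran from 0.748 to 1.06 in Kl/Kl females and from 0.681 to 1.29 in control females, a difference of −0.30 (SE 0.362). In ∆UCS males it ran from 0.417 to 2.03 in Kl/Kl and from 1.26 to 1.96 in controls, a difference of −0.49 (SE 0.335, adjusted p = 0.536). Tgfb3 also had an r of 0.745 with the smooth muscle sum (permutation p = 7e-05, adjusted 0.00297) and a rho of 0.778 (permutation p = 4e-05, adjusted 0.00169), with r = 0.624 without the 2 farthest, 0.759 within Kl/Kl, 0.719 within controls, 0.823 in set 1 and 0.485 in set 2. The doubted Kl/Kl female replicate 2 had 2.44, above all 22 kept libraries. With all 24 libraries the difference was −0.0028 in Bmp2+/+ males and 0.05 in females, and under the deposited scaling it was 0.23 in females.

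The type II receptor Tgfbr2, which binds the ligand first, had 1.96, 1.40 and 1.38 scaled TPM in Kl/Kl Bmp2+/+ males, against 1.19, 1.03, 1.21 and 1.38 in controls. In females it ran from 1.25 to 1.75 in Kl/Kl and from 0.947 to 1.42 in controls. In ∆UCS males it ran from 0.972 to 1.47 in Kl/Kl and from 1.46 to 1.87 in controls. The log2 differences were 0.34 (SE 0.191), 0.28 (SE 0.188) and −0.35 (SE 0.174), none past the threshold (adjusted p = 0.48, 0.465 and 0.375). The Klotho effect in ∆UCS males minus that in Bmp2+/+ males was −0.69 (95% interval −1.23 to −0.144, unadjusted p = 0.016, adjusted p = 0.663, limma). Under the deposited scaling the ∆UCS difference changed sign, to 0.03.

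Tgfbr3 lay between 0.258 and 0.560 scaled TPM over the 22 libraries, and its highest value was 2.17 times its lowest, against 2.07 times for Tgfbr2. Its log2 differences were 0.31 (SE 0.189) in Bmp2+/+ males, −0.14 (SE 0.186) in females and −0.11 (SE 0.172) in ∆UCS males, with adjusted p-values of 0.519, 0.737 and 0.804. The signs in females and ∆UCS males turned under the deposited scaling, to 0.32 and 0.23.

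Ltbp1, which tethers latent TGF-beta to the matrix, had 0.290, 0.252 and 0.402 scaled TPM in Kl/Kl Bmp2+/+ males, against 0.212, 0.272, 0.145 and 0.108 in controls. The log2 difference was 0.59 (SE 0.337, adjusted p = 0.482), and the groups overlapped through control replicate 2. In females the difference was 0.17 (SE 0.332), and in ∆UCS males −0.32 (SE 0.308), where Kl/Kl ran from 0.123 to 0.745 and controls from 0.265 to 0.451. Ltbp1 followed the summed smooth muscle markers, with a Pearson's r of 0.892 over 22 libraries (permutation p = 1e-05, adjusted 0.000675) and a Spearman's rho of 0.82 (permutation p = 1e-05, adjusted 0.00135). Without the 2 farthest libraries r was 0.818, and it was 0.92 in Kl/Kl, 0.943 in control, 0.911 in set 1 and 0.846 in set 2 libraries. That sum was 159.7 to 504.1 scaled TPM in Kl/Kl Bmp2+/+ males and 106.6 to 239.2 in their controls, 153.2 to 242.4 in Kl/Kl females and 178.9 to 303.2 in their controls, and 104 to 824 in ∆UCS Kl/Kl males and 312.6 to 492 in ∆UCS controls. Of its 6 markers 0 passed the test in any of the 3 strata.

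Ltbp2, which binds fibrillin and elastic fibre proteins but not latent TGF-beta, differed by −0.17 (SE 0.288), −0.16 (SE 0.284) and −0.35 (SE 0.263) log2 units in Bmp2+/+ males, females and ∆UCS males, with adjusted p-values of 0.825, 0.812 and 0.575. The sign turned under the deposited scaling in females, to 0.33, and in ∆UCS males, to 0.01. Its levels overlapped in all 3 strata, at 0.335 to 0.943 in Kl/Kl and 0.509 to 0.647 in control Bmp2+/+ males.

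Tgfbi, a secreted adhesion protein first found as a gene induced by TGF-beta, had 2.10, 2.16 and 2.73 scaled TPM in Kl/Kl Bmp2+/+ males, against 1.30, 1.51, 2.33 and 1.47 in controls. In females it had 2.00, 3.07 and 1.81 in Kl/Kl, against 1.68, 1.59, 1.61 and 1.52 in controls, without overlap. In ∆UCS males it had 1.84, 1.84, 1.89 and 2.67 in Kl/Kl, against 2.43, 1.43, 1.67 and 1.96 in controls. The log2 differences were 0.50 (SE 0.23), 0.46 (SE 0.227) and 0.14 (SE 0.21), and none passed the threshold (adjusted p = 0.379, 0.303 and 0.803). With all 24 libraries they were 0.33, 0.37 and 0.14. Over 22 libraries Tgfbi had an r of 0.640 with the macrophage sum (permutation p = 0.00153, adjusted 0.0295) and a rho of 0.617 (permutation p = 0.00295, adjusted 0.0493), with r = 0.702 without the 2 farthest, 0.399 within Kl/Kl, 0.309 within controls, 0.437 in set 1 and 0.783 in set 2. With the platelet sum its r was 0.692 (permutation p = 0.00036, adjusted 0.0081) and its rho 0.607 (permutation p = 0.00336, adjusted 0.0493), with r = 0.524 without the 2 farthest, 0.728 within Kl/Kl, 0.231 within controls, 0.567 in set 1 and 0.790 in set 2. Of the 135 relations 14 had an adjusted p under the threshold by Pearson's r, 11 by Spearman's rho and 9 by both. Groups of higher Kl/Kl values without overlap were thus found for 1 of 9 genes in Bmp2+/+ males, 2 of 9 in females and 0 of 9 in ∆UCS males, beside 5.35%, 8.16% and 3.64% of all genes, and lower ones for 0 of 9 in each, beside 4.07%, 8.45% and 5.22%.

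**Figure D4:**
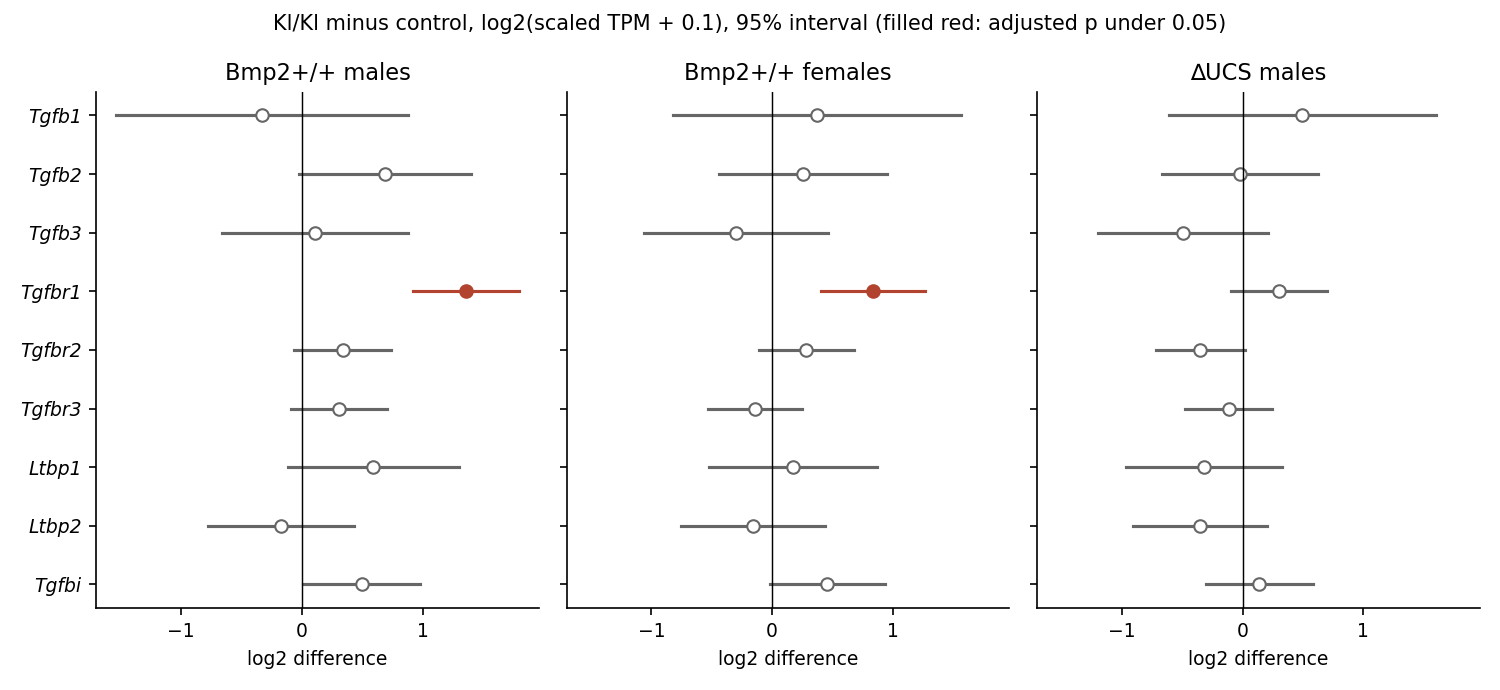
Log2 differences, Kl/Kl minus control, with 95% intervals for the 9 genes in Bmp2+/+ males (left), Bmp2+/+ females (middle) and ∆UCS males (right), from 22 libraries. Tgfbr1 is called at 1.36 and 0.83 in the first 2 panels (filled red), and each interval of the other 8 genes has an adjusted p above the threshold.

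Over the 9 genes the median log2 difference of Kl/Kl from control was 0.34 for Bmp2+/+ males, 0.26 for females and −0.11 for ∆UCS males, beside medians of −0.03, −0.04 and 0.02 over all genes tested. Under the deposited scaling the all-gene medians were 0.10, 0.40 and 0.34.

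The wider pathway was read from 5 lists of other TGF-beta genes, and 2 of the genes given here passed the test. In the list of early target genes 1 of 12 tested was called higher and 0 lower in Kl/Kl Bmp2+/+ males, beside 1.04% of all genes higher and 0.136% lower. It was Fn1, which encodes fibronectin. Fn1 had 9.61, 5.35 and 9.30 scaled TPM in Kl/Kl Bmp2+/+ males, against 4.10, 2.70, 1.79 and 2.34 in controls, a log2 difference of 1.56 (SE 0.348, limma adjusted p = 0.0313). Every kept Kl/Kl aorta was above every control. Without Kl/Kl replicate 4 the difference was 1.37 (adjusted p = 0.448), and leaving out Kl/Kl replicate 2 or control replicate 2, 3 or 4 also ended the call, as did age as a covariate (limma adjusted p = 0.0587). With all 24 libraries Fn1 differed by 1.06 (adjusted p = 0.572), and under the deposited scaling it was not called. Within library set 1 it differed by 1.36 (adjusted p = 0.727).

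In females Fn1 differed by 1.12 (SE 0.343, adjusted p = 0.0889), and in ∆UCS males by 0.65 (SE 0.317). In the list of genes of latent complexes and ligand activation, 1 of 15 tested was called higher and 0 lower in Kl/Kl females, beside 1.8% of all genes higher and 0.998% lower. This was Thbs1, which encodes thrombospondin 1, an activator of latent TGF-beta. It had 7.06, 7.52 and 6.06 scaled TPM in Kl/Kl females, against 2.63, 2.41, 3.20 and 3.30 in controls, and the log2 difference was 1.23 (SE 0.301, limma adjusted p = 0.034). The doubted Kl/Kl replicate 2 had 6.54, and with all 24 libraries the difference was 1.21 with an adjusted p of 0.223. Leaving out any of 3 Kl/Kl libraries gave an adjusted p of 0.0782 (replicate 1), 0.144 (replicate 3) or 0.0654 (replicate 4), and leaving out control replicate 2, 3 or 4 gave 0.115, 0.0717 or 0.06. In Bmp2+/+ males Thbs1 differed by 0.65 (SE 0.305, adjusted p = 0.386), with 6.56, 4.57 and 6.90 in Kl/Kl and 4.67, 1.90, 6.34 and 2.54 in controls, and in ∆UCS males by −0.07 (SE 0.278).

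No gene was called in any stratum among 9 co-receptors and receptor modifiers such as Eng and Bambi, 12 Smad pathway genes such as Smad3 and Smad7, or 4 proteoglycans that bind TGF-beta (Dcn, Bgn, Fmod and Aspn). Over all genes 1.18%, 2.8% and 0.885% were called in Bmp2+/+ males, females and ∆UCS males. At such shares lists this short can hold no call, so these counts do not show the lists to be unchanged. The proteoglycans had a median log2 difference of 0.69 in the Bmp2+/+ male stratum, 0.24 in the female stratum and −0.24 in the ∆UCS stratum. The Smad pathway genes had medians of −0.02, −0.02 and 0.01, close to those of all genes. Early targets had medians of 0.24, 0.13 and 0.04, activation genes 0.22, 0.20 and −0.07, and co-receptors −0.05, −0.20 and −0.18 in the same strata.

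**Figure D5:**
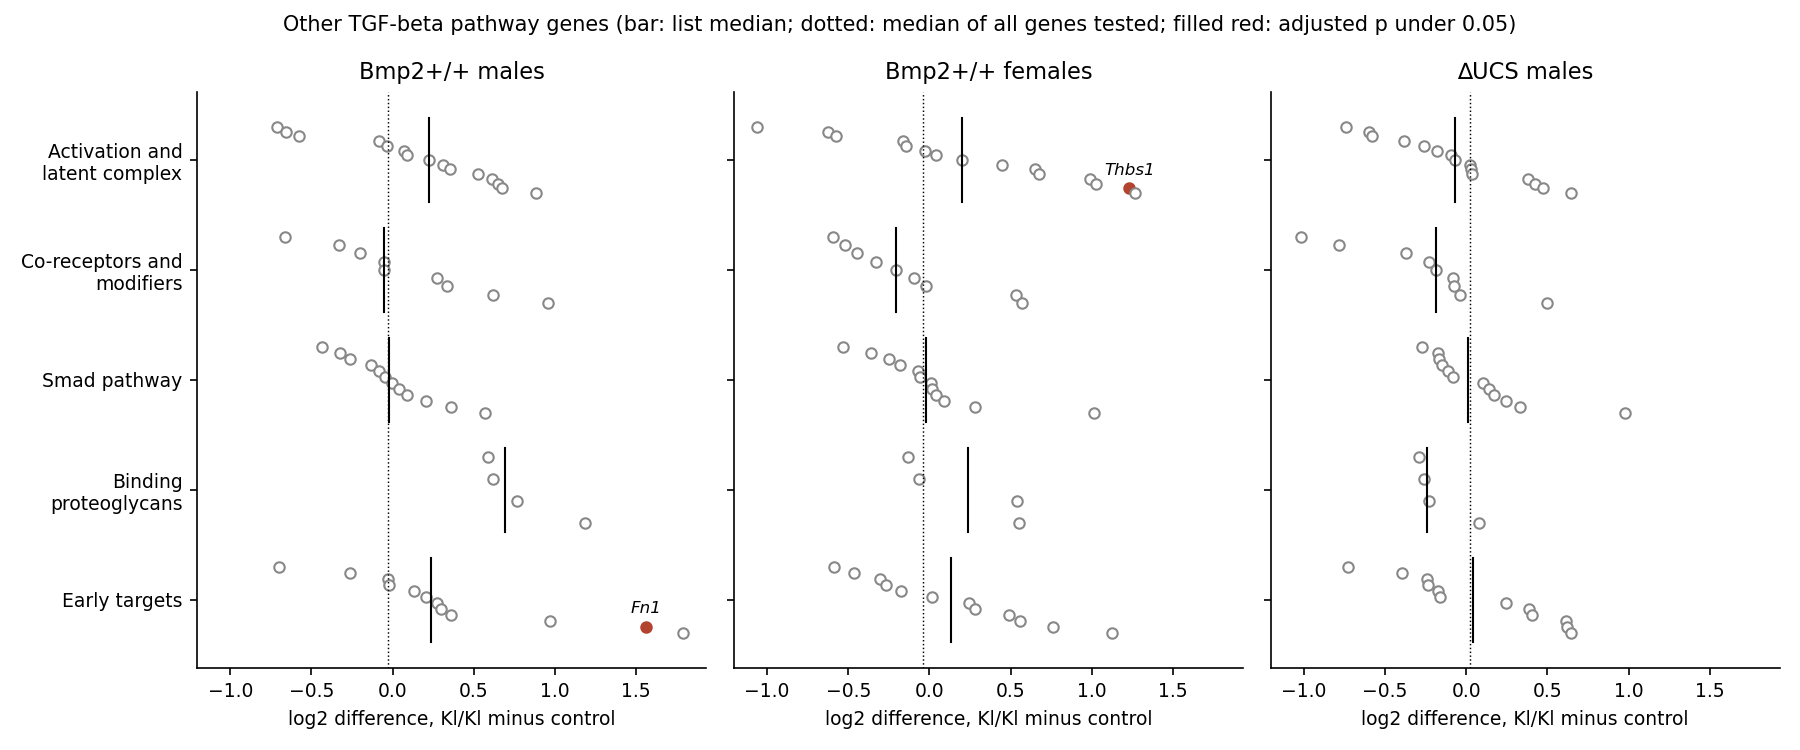
Log2 differences, Kl/Kl minus control, of the tested genes of 5 TGF-beta pathway lists in 3 strata (bar, list median, dotted line, median of all genes tested). Fn1 in Bmp2+/+ males and Thbs1 in females are the filled points, at 1.56 and 1.23.

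The Bmp2 allele was compared in males of the same Klotho class. In control males 0 of 9 genes were called for ∆UCS against Bmp2+/+, beside 0% of 21248 genes, with 1006 genes at an unadjusted p under 0.05 and 0 called by limma voom on estimated reads. Tgfbr1 had 0.904, 1.02, 1.09 and 0.967 scaled TPM in ∆UCS control males, against 0.789, 0.882, 0.578 and 0.550 in Bmp2+/+ control males, with no overlap. The log2 difference, ∆UCS minus Bmp2+/+, was 0.62 (SE 0.217, unadjusted p = 0.0109, adjusted p = 0.993, limma), and 0.44 with all 24 libraries. Tgfb2, Tgfb3, Tgfbr2 and Ltbp2 were also higher without overlap, which makes 5 of 9 genes, beside 2.52% of all genes, and 0 of 9 were lower without overlap, beside 1.37%. This was read in scaled TPM, and under the deposited scaling the groups overlapped for each of these 5 genes. Tgfb2 ran from 0.247 to 0.312 in ∆UCS and from 0.140 to 0.244 in Bmp2+/+ controls. Tgfb3 ran from 1.26 to 1.96 in ∆UCS and from 0.714 to 1.15 in Bmp2+/+ controls. Tgfbr2 ran from 1.46 to 1.87 in ∆UCS and from 1.03 to 1.38 in Bmp2+/+ controls, and Ltbp2 from 0.663 to 1.12 in ∆UCS and from 0.509 to 0.647 in Bmp2+/+ controls. Their log2 differences were 0.59 (SE 0.351), 0.60 (SE 0.382), 0.39 (SE 0.199) and 0.30 (SE 0.299), and Ltbp1, whose groups overlapped, differed by 0.83 (SE 0.351, unadjusted p = 0.03, adjusted p = 0.993, limma). Over the alternatives run, the difference ran from 0.21 to 0.83 for Tgfbr1, from 0.18 to 0.88 for Tgfb2 and from 0.30 to 0.72 for Tgfb3. It ran from 0.15 to 0.46 for Tgfbr2 and from 0.05 to 0.45 for Ltbp2. These 4 Bmp2+/+ controls are the ones against which the Kl/Kl Bmp2+/+ males were set, so the ∆UCS and Klotho differences of a gene share them. The summed smooth muscle markers were 312.6 to 492 scaled TPM in ∆UCS control males and 106.6 to 239.2 in Bmp2+/+ control males, without overlap, and the part of smooth muscle RNA in these differences was not tested. All ∆UCS libraries were in library set 1, which held 2 of the 4 Bmp2+/+ controls. Within set 1 Tgfbr1 differed by 0.49 and Ltbp1 by 0.75 (adjusted p = 0.838 for both, limma).

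In Kl/Kl males 0 of 9 genes were called for ∆UCS against Bmp2+/+, beside 0% of all genes, with 715 genes at an unadjusted p under 0.05 and 0 called by limma voom. None of the 9 was free of overlap in either direction, beside 0.8% of all genes higher and 1.55% lower without overlap. Tgfbr1 had 1.03, 1.10, 1.53 and 1.38 scaled TPM in ∆UCS Kl/Kl males, against 1.31, 1.92 and 2.54 in Bmp2+/+ Kl/Kl males, a log2 difference of −0.44 (95% interval −0.900 to 0.011, unadjusted p = 0.0552, adjusted p = 0.973, limma). With all 24 libraries the difference was −0.27. For the other 8 genes the log2 difference ran from −0.30 for Tgfbr3 to 0.75 for Tgfb1.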

How the data were processed

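RNA of 24 aortas was sequenced from polyA libraries made with a directional kit, per the labels' protocols. Per the submitters' processing notes, the authors used Partek and the mouse build mm39 for the deposited TPM. No label or header names an aligner, an annotation or a counting rule, so antisense and overlapping genes cannot be separated. Each deposited TPM column sums to 482073, and all sample columns were used.

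The lowest value of a gene stands for 0 reads plus 0.0001 read, from which reads were estimated. Of 256477 values between 0.5 and 20 reads, 73.1% lay within 0.05 of a whole number, and 98.6% of the lengths so inferred were within 1% of the genomic span.

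TPM was scaled by the median of ratios of nuclear genes. Genes with a deposited TPM of at least 0.1 in at least 4 libraries were tested (21248) on log2(scaled TPM + 0.1), which understates the change of low genes, with limma 3.58.1 (lmFit, eBayes with trend) in R 4.3.3. A single fit estimated 6 group means plus a library set term, read from 2 spellings of the library names. All ∆UCS libraries were in set 1, all females in set 2, and Bmp2+/+ males in both. The tests were two-sided, adjusted by Benjamini-Hochberg over all genes, with a threshold of 0.05. Correlations used 100000 permutations, two-sided, over all libraries of a relation without regard to group. Replicates were taken as separate animals, each library having its own name, and 0 pairs of libraries held identical values.

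Named were all 9 genes, past-threshold members of the pathway lists (at most 4 each way), and the 3 genes most like Tgfbr1 and Tgfb1 by Pearson's r. The 9 genes, the lists and the tests were chosen with earlier results of these data known, and the 2 doubted libraries were known from them. A single gene of the early target list is not reported here and stays out of the counts and medians of that list. Alternatives were other libraries, scaling, pseudocounts, filters, covariates and limma voom on estimated reads, and leaving out each replicate. A library GC slope covariate, from GENCODE transcripts matched to 98.9% of nuclear genes tested, was added after seeing the data. The fit was also run on simulated counts with the same spread for all genes and no library set, GC slope or tissue difference. These settings differ from the data, so that run does not show how firm the calls here are.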

Additional observations from a re-analysis of the deposited data

Results flagged for a closer look

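Of 36 sets of 4 libraries (9 genes in 4 groups), 2 held a library far from the other 3, where chance alone gives about 1 in 20. Tgfb3 in Bmp2+/+ control female replicate 1 had 0.681 scaled TPM, against 1.21 to 1.29 in the other controls, a gap of 0.864 of the range of the group. Tgfbi in ∆UCS Kl/Kl male replicate 4 had 2.67 scaled TPM, against 1.84 to 1.89 in the other ∆UCS Kl/Kl males, a gap of 0.938 of the range. The same ∆UCS library also had the highest Tgfb2, Tgfb3 and Ltbp1 of the 22 kept libraries, at 0.709, 2.03 and 0.745 scaled TPM, and the highest summed smooth muscle markers, 824 scaled TPM. Why these libraries stood apart was not tested.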

How the results depend on the processing

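The number of the 9 genes called for Klotho was 1 in Bmp2+/+ males and 1 in females. In Bmp2+/+ males it was 0 with all 24 libraries, with all 24 under the deposited scaling, with limma voom on all 24, and within library set 1, and it ranged from 0 to 1 when each library was left out. In females it was 0 with all 24 libraries, with all 24 under the deposited scaling, with limma voom on all 24, with age as a covariate, with a replicate block and within library set 2, and ranged from 0 to 1 when each library was left out. In ∆UCS males, for the Bmp2 allele and for the interactions it was 0 under every alternative run. Tgfbr1 kept a positive Klotho difference under every alternative run, from 0.80 to 1.55 in Bmp2+/+ males and from 0.53 to 1.37 in females.

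Over all genes the Klotho fits called 251 (Bmp2+/+ males), 594 (females) and 188 (∆UCS males), and with all 24 libraries 0, 0 and 4. The deposited scaling called 149 (142 higher), 520 (515 higher) and 112 (99 higher), against 222, 382 and 117 higher in the main setting. With a pseudocount of 1 the ∆UCS count was 95, with the GC slope as covariate 1339 genes were called in females and 301 in ∆UCS males, and within library set 1 there were 50 in Bmp2+/+ males and 88 in ∆UCS males. With a TPM of at least 1 as filter 399 were called in females (189 higher) and 137 in ∆UCS males. Leaving out each library gave 85 to 669, 216 to 1125 and 58 to 634. Same-numbered libraries did not deviate together (median correlation −0.00147 over 50 pairs, against 0.0272 over 151 pairs of different number), and the replicate block gave 210, 371 and 131 genes. The spread of Tgfb1 within groups limits what can be said of it, since its intervals reached 0.884, 1.56 and 1.60 log2 units above 0. The cause of these shifts was not tested.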
